A study of Mus musculus with 10 samples.

Results

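The genes described here are the hypoxia-inducible factors, the hydroxylases that control them and a set of their classic target genes, read in mouse small cell lung cancer cells treated with stiripentol. The 10 members (Hif1a, Epas1, Arnt, Egln1, Egln3, Vegfa, Car9, Adm, Bnip3 and Ndrg1) were chosen by symbol, with earlier results of these data known. All 10 were found among the 26335 genes of the deposited table. Of these, 8 had a mean log2 CPM (CPM is the read count of a gene scaled to the reads of its library) above 0 and entered the test with 12306 genes in all, while Egln3 and Adm lay below that limit. Epas1 passed it only through its control level and Car9 only through its level with stiripentol.

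Hypoxia-inducible factors are transcription factors made of an oxygen-regulated alpha subunit (the products of Hif1a and Epas1) and a stable partner, ARNT. When oxygen is present, prolyl hydroxylases of the EGLN family mark the alpha subunit, which the VHL ubiquitin ligase then sends for degradation. Most of this control therefore acts on the protein, which RNA levels do not measure. In hypoxia the factor accumulates, binds short ACGTG or GCGTG cores near its target genes and raises glycolysis, blood vessel growth, pH control and removal of mitochondria.

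Both groups were cultures of mSCLC-2405, a single line from a primary lung tumour of a genetically engineered mouse model started with an Adeno-Cre virus given into the trachea, so control and treated cells share the deletions of that model. Cells were grown in RPMI with serum and exposed to DMSO (control, 5 libraries) or 250 μM stiripentol (5 libraries) for 48 h. Stiripentol is an antiseizure medication, and the study asked what it does to the respiratory chain and to tumour cells. The labels do not say whether libraries of a group came from separate cultures, so each p-value measures only the spread between these libraries.

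Libraries held 22375625 to 65299372 reads in control and 55015760 to 60670901 reads with stiripentol, and the shallowest was control 5. Within each group the libraries fell into 2 sets. Controls 1 to 3 stood apart from controls 4 and 5, and stiripentol 3 to 5 stood apart from stiripentol 1 and 2, with log2 CPM correlating at 0.983 to 0.997 (Pearson r across genes) within a set and at 0.920 to 0.939 between the sets of a group. Neither the labels nor the methods say what divides them. They are called here the first set (controls 1 to 3 with stiripentol 3 to 5) and the second set (controls 4 and 5 with stiripentol 1 and 2). This matching rests on the number of libraries, and controls 4 and 5 correlated more highly with stiripentol 3 to 5 (0.932 to 0.938) than with stiripentol 1 and 2 (0.881 to 0.904). In the deposited values a gene with no read is listed at −4.82 in controls 1 to 3 and at −4.74 in the other 7 libraries. First-set comparisons therefore cross these 2 listed values, and second-set comparisons do not. Of 6 neuroendocrine markers in the table, 2 lay above the expression limit (Ncam1 and Uchl1), and Dll3 never exceeded 3 reads. The 6 summed to 93.5 to 120 CPM in control and 127 to 157 CPM with stiripentol. That sum came mostly from Ncam1 (6.54 to 6.88 log2 CPM in control, 6.97 to 7.27 with stiripentol). Insm1, Chgb and Syp lay below the limit, at −1.39 log2 CPM or less in every library. Of 5 epithelial markers, 3 lay above it (Krt8, Krt18 and Krt19) and Epcam never exceeded 3 reads, with a sum of 2380 to 2959 CPM in control and 1809 to 2319 CPM with stiripentol. Of 8 fibroblast markers, 7 lay above it, with a sum of 2724 to 3895 CPM in control and 2504 to 4700 CPM with stiripentol that came mostly from Vim. Some other fibroblast genes moved with the treatment: Col3a1 lay at 4.73 to 8.36 log2 CPM in control and 0.49 to 2.00 with stiripentol. Pdgfrb lay at 6.44 to 7.61 and 5.25 to 5.86, and Col1a2 and Pdgfra were likewise lower in every treated library than in any control. Col1a1 (4.67 to 8.33 in control and 5.30 to 6.65 with stiripentol), Dcn (1.01 to 3.68 and 1.49 to 2.94) and Vim overlapped between the groups. The 4 immune markers in the table summed to 6.42 to 18.6 CPM in control and 58.8 to 103 CPM with stiripentol. Cd68 alone carried that difference (2.06 to 4.17 log2 CPM in control, 5.78 to 6.69 with stiripentol), while Lyz2 overlapped between the groups and Ptprc and Itgam never exceeded 3 reads. The part of any such list in the results was not tested.

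Promoter sequence is shown for the 3 members on which the results turn most and for which a window was given: Egln1, a member called lower, Car9, a member called higher, and Bnip3, whose direction differed between the library sets. The stretches for Egln1 (chr8:124949325-124949404, minus strand) and Bnip3 (chr7:138909520-138909656, minus strand) lie upstream of the annotated gene, whereas that for Car9 (chr4:43506998-43507022, plus strand) is a core with its flanks, just inside the start of the annotated gene. All are from RefSeq on GRCm38.p6, are written 5′ to 3′ on the strand of the gene, and carry the letters ACGTG or GCGTG, or their reverse complements CACGT and CACGC, in capitals.
Egln1: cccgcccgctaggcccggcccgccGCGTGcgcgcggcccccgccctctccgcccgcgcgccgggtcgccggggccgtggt
Car9: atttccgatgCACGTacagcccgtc
Bnip3: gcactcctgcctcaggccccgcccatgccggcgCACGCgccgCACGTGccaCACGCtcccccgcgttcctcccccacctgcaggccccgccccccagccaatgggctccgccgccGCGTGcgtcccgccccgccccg
Bnip3 held 5 such matches, of which a pair overlaps in CACGTG, the letters of an E-box that other factors also bind. A further match of Egln1 lay inside the annotated gene and is not printed. Of the 10 members, 8 had a window (RefSeq, 300 bases around a gene start), Epas1 and Ndrg1 being without one, and 8 of 8 held at least 1 match. By window, 8 of 9 did: the Vegfa window at the annotated gene start held none, and its matches lay in a further window inside the gene. Among all 32817 windows 43.8% held one, and among all genes with a window 46.7% did. Of the other pathway genes described below, 78.4% of those with a window held one, and 70.5% of their windows did. A match describes the letters only and is not a measured binding site.

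Of the 8 members tested, 2 were lower with stiripentol (Epas1 and Egln1) and 2 were higher (Car9 and Ndrg1), at an adjusted p below 0.05 in limma. Over all 12306 genes tested, 14.1% were called lower and 13.6% higher. The groups did not overlap for 2 members in the lower direction (Epas1 and Egln1) and for 3 in the higher (Arnt, Car9 and Ndrg1), where 14.3% of all genes were without overlap and lower and 13% without overlap and higher. The median change of the 8 tested members was 0.07 on the log2 scale, beside −0.06 over all genes tested. In bulk RNA a change in the mix of cells and a change in RNA per cell cannot be told apart.

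**Figure D1:**
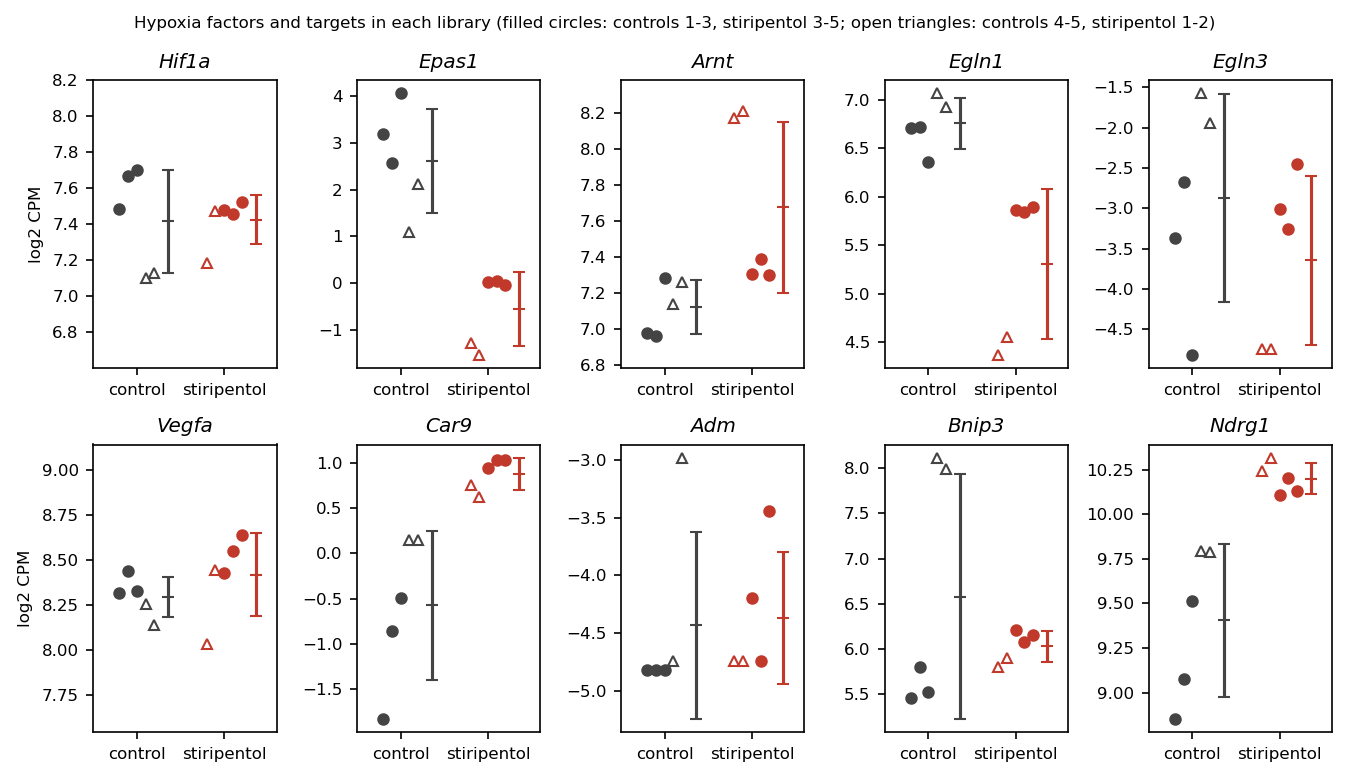
Log2 CPM of each member (vertical axis, a separate scale in each panel) in the 5 control and 5 stiripentol libraries, with bars for the mean ± SD of each group. Filled circles are controls 1 to 3 and stiripentol 3 to 5, and open triangles are controls 4 and 5 and stiripentol 1 and 2. Epas1 and Egln1 lie lower in every treated library, Arnt, Car9 and Ndrg1 lie higher, and the Bnip3 controls form 2 separate levels. Egln3 and Adm are near the value of a gene with no read.

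Among the factors, Epas1, which encodes the HIF-2 alpha subunit, fell most. Its log2 CPM was 3.19, 2.56, 4.06, 1.10 and 2.11 in controls 1 to 5 and −1.26, −1.52, 0.03, 0.06 and −0.03 in stiripentol 1 to 5. Every control exceeded every treated library, although the controls themselves spanned 134 to 1057 reads in the deeper 4 libraries. The change was −3.15 ± 0.55 (log2, SE, n = 5 per group; limma adjusted p = 0.00276), an 8.86-fold lower level on the scale of the deposited values. In CPM, the means were 7.58 ± 5.64 and 0.725 ± 0.348 (SD, n = 5). Treated libraries held 18 to 60 Epas1 reads each, above the 3 reads that a count of 0 would allow. Epas1 is best known from endothelial cells. The 4 endothelial markers in the table, all below the expression limit, summed to 0.283 to 0.69 CPM in control and 0.293 to 1.20 CPM with stiripentol. Which cells the Epas1 reads came from was not tested.

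Hif1a, the gene of the HIF-1 alpha subunit, did not pass the test. It measured 7.48, 7.67, 7.70, 7.10 and 7.13 in the controls and 7.18, 7.48, 7.48, 7.46 and 7.52 with stiripentol (log2 CPM). The groups overlapped, and the difference of 0.01 ± 0.14 (SE, n = 5 per group) had a limma adjusted p of 0.970, with a 95% interval of −0.30 to 0.32.

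Arnt, the shared partner subunit, was the member whose call depended on the adjustment over all genes. Its log2 CPM was 6.98, 6.96, 7.28, 7.14 and 7.26 in the controls and 8.17, 8.21, 7.31, 7.39 and 7.30 with stiripentol. The lowest treated library exceeded the highest control by a small margin, and stiripentol 1 and 2 stood well above the other three. The change was 0.55 ± 0.20 (SE, n = 5 per group), with a limma p of 0.0208 before adjustment and 0.0660 after it. A two-sided exact permutation test, without adjustment, gave p = 0.00794, the smallest value that 5 against 5 libraries allow. Without stiripentol 3 the limma adjusted p was 0.0494, and without stiripentol 5 it was 0.0455.

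Of the prolyl hydroxylases, Egln1 (PHD2, the main oxygen sensor of the pathway) fell. Controls 1 to 5 measured 6.71, 6.72, 6.36, 7.07 and 6.93 and stiripentol 1 to 5 measured 4.37, 4.56, 5.87, 5.85 and 5.90 (log2 CPM). No libraries overlapped, and the treated libraries formed 2 levels, with stiripentol 1 and 2 the lower. The change was −1.45 ± 0.33 (SE, n = 5 per group; limma adjusted p = 0.00921), a 2.73-fold lower level.

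Egln3 (PHD3, itself a hypoxia-induced hydroxylase) was almost absent. It had 4, 7, 0, 19 and 5 reads in the controls and 0, 0, 5, 4 and 8 reads with stiripentol. These counts gave no detectable difference at this depth (change −0.77, two-sided exact permutation p = 0.325, n = 5 per group).

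Among the target genes, Car9, a cell-surface carbonic anhydrase that helps to control pH, was higher with stiripentol but stayed at a low level. Reads numbered 16, 30, 43, 68 and 24 in controls 1 to 5 and 100, 87, 109, 120 and 110 in stiripentol 1 to 5. On the log2 CPM scale these were −1.83, −0.86, −0.49, 0.15 and 0.15 in control and 0.75, 0.62, 0.94, 1.03 and 1.03 with stiripentol, without overlap. The change was 1.45 ± 0.38 (SE, n = 5 per group; limma adjusted p = 0.0184), a 2.74-fold higher level. In CPM, the means were 0.716 ± 0.359 and 1.81 ± 0.224 (SD, n = 5).

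An annotated antisense gene, Gm12454, overlaps Car9 on the opposite strand. Gm12454 had 46, 43, 69, 149 and 44 reads in the controls and 178, 164, 173, 193 and 182 reads with stiripentol. Like Car9, it was higher in every treated library than in every control. Whether counting used the strand is not stated, and without strand the reads of these genes cannot be told apart.

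Ndrg1, a stress-responsive gene that hypoxia induces in many cell types, rose. It measured 8.85, 9.07, 9.52, 9.79 and 9.79 in the controls and 10.24, 10.32, 10.11, 10.20 and 10.13 with stiripentol (log2 CPM). Treated libraries lay close together above all controls, and the difference was 0.80 ± 0.18 (SE, n = 5 per group; limma adjusted p = 0.0105), a 1.74-fold higher level. The mean was 701 ± 196 CPM in control and 1178 ± 69.8 CPM with stiripentol (SD, n = 5).

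Vegfa, the main growth factor for blood vessels, showed no difference that passed the test. Its log2 CPM ran from 8.14 to 8.44 in the controls (median 8.32) and from 8.03 to 8.64 with stiripentol (median 8.44). The groups overlapped and the change was 0.12 ± 0.12 (SE, n = 5 per group; limma adjusted p = 0.458), with a 95% interval of −0.14 to 0.39. Adm, which encodes the vasodilator peptide adrenomedullin, had no read in 7 of 10 libraries and at most 3 reads in the others, so no difference was detectable at this depth (two-sided exact permutation p = 0.754, n = 5 per group).

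Bnip3, a mitochondrial outer membrane protein that marks mitochondria for removal, was the member whose controls had the largest SD among the 8 tested (1.36, beside 1.11 for Epas1). The controls measured 5.45, 5.79, 5.52, 8.12 and 7.99 and the treated libraries 5.80, 5.90, 6.21, 6.08 and 6.15 (log2 CPM). All 5 treated libraries lay above controls 1 to 3 and below controls 4 and 5, the closest pair being 5.80 in stiripentol 1 and 5.79 in control 2. This order does not depend on which treated libraries are matched to which controls. The pooled change of −0.55 ± 0.53 (SE, n = 5 per group; limma adjusted p = 0.455) is a mean over these opposite differences. Controls 4 and 5 exceeded controls 1 to 3 by 5.53-fold, whereas stiripentol 1 and 2 were 1.23-fold below stiripentol 3 to 5.

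**Figure D2:**
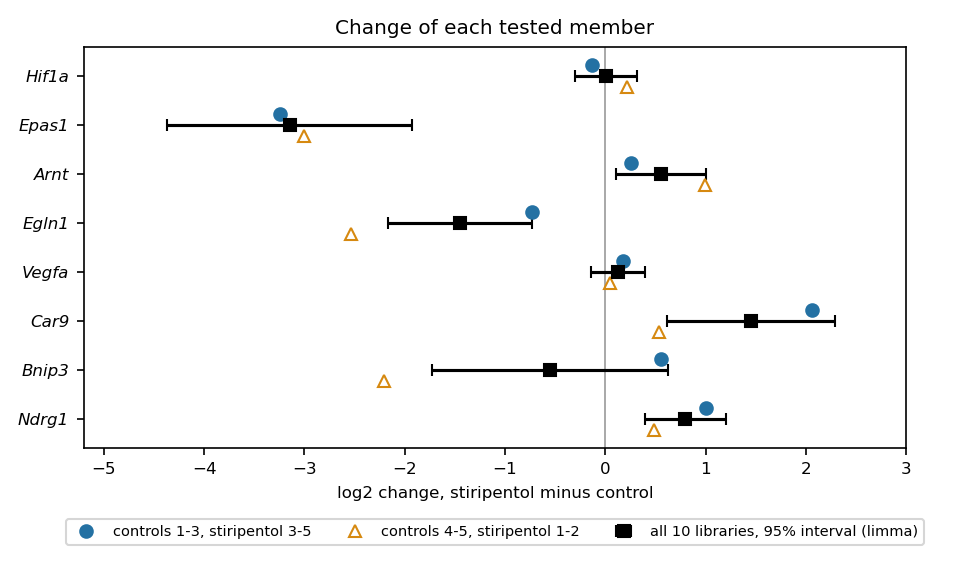
Log2 change with stiripentol (horizontal axis, stiripentol minus control) of the 8 tested members. Black squares with bars are the change over 10 libraries and its 95% limma interval, blue circles the change in the first library set and orange triangles that in the second. Bnip3 changed by 0.56 in the first set and by −2.21 in the second, and Egln1 by −0.73 and −2.54, while the 2 Epas1 changes lie close together under this matching of the sets (−1.59 and −4.66 under the other).

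Compared within the library sets, 2 members were called lower (Epas1 and Egln1) and 4 higher (Arnt, Car9, Bnip3 and Ndrg1) in the first, beside 27% of all genes lower and 37.7% higher. In the second set 3 were called lower (Epas1, Egln1 and Bnip3) and 2 higher (Arnt and Ndrg1), beside 46.5% and 25.7% of all genes. Bnip3 was therefore called in opposite directions: 1.47-fold higher in the first set (0.56 ± 0.10, log2, SE; limma adjusted p = 0.00163) and 4.62-fold lower in the second (−2.21 ± 0.11; limma adjusted p = 4.48e-08). Egln1 was lower in both, by 1.66-fold in the first and 5.80-fold in the second.

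A test of the difference between the sets (the interaction term in limma) was passed by 5 of 8 members and by 63.3% of all genes tested. Without stiripentol 2, it was passed by 3 members. The second-set change minus the first-set change was −2.76 ± 0.15 for Bnip3 (SE; limma adjusted p = 2.42e-07) and −1.81 ± 0.16 for Egln1 (limma adjusted p = 4.18e-06). It was 0.74 for Arnt, which changed by 0.26 and 0.99 (limma adjusted p = 0.000841), and −1.52 for Car9, which changed by 2.06 and 0.54 (limma adjusted p = 0.0153). Hif1a also passed, with changes of −0.13 and 0.22 that were not called in either set (limma adjusted p of the difference 0.0446). Epas1 was 9.49-fold lower in the first set and 8.00-fold lower in the second (limma adjusted p of the difference 0.713). Vegfa changed by 0.18 and 0.04 (limma adjusted p 0.482) and Ndrg1 by 1.00 and 0.49 (limma adjusted p 0.0516). Since the matching of the sets is uncertain, these values hold for the matching given above. With the sets matched the other way, Bnip3 changed by −1.91 from controls 4 and 5 to stiripentol 3 to 5 and by 0.26 from controls 1 to 3 to stiripentol 1 and 2. Matched that way, the changes in the same order were −1.59 and −4.66 for Epas1, −1.13 and −2.14 for Egln1, 0.13 and 1.12 for Arnt, 0.85 and 1.75 for Car9, 0.36 and 1.13 for Ndrg1, 0.37 and −0.29 for Hif1a and 0.34 and −0.12 for Vegfa. The test of the difference was then passed by 7 of 8 members. The share over all genes is not given for this matching (63.3% in the first), so this count is not a result about the members. The nearness of the Epas1 changes holds only for the first matching.

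When each set in a group was reduced to 1 mean, leaving 2 values against 2, no member was called by limma, and 2 (Epas1 and Egln1) had an unadjusted p below 0.05, as did 1116 of all genes. The adjusted p was then 0.451 for Epas1, 0.452 for Egln1, 0.641 for Car9 and 0.562 for Ndrg1. Controls 4 and 5 share the no-read value of the treated libraries. Against these controls alone, the 5 treated libraries gave a limma adjusted p of 0.0552 for Egln1 (−1.69) and 0.0773 for Car9 (0.73). Epas1 was then at −2.15 (limma adjusted p = 0.0435) and Ndrg1 at 0.41 (limma adjusted p = 0.0207), and Bnip3 was then called lower (−2.03, limma adjusted p = 0.000525).

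The other genes of the pathway were taken from 7 lists, which together held 98 genes of the table, 76 of them above the expression limit. Over these 76 genes, 18 were called lower and 3 higher by limma, with a median change of −0.14. Over all genes tested 14.1% were lower and 13.6% higher, with a median of −0.06. Without control 5, 5 were called higher. In the first library set their median was 0.15, with 22 called lower and 30 higher, beside 27% and 37.7% of all genes and a median of 0.08 over all genes. In the second set it was −0.69, with 47 lower and 7 higher, beside 46.5% and 25.7% of all genes and a median of −0.25.

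Among 14 tested regulators of the factors, 1 was called higher and none lower by limma, beside 13.6% and 14.1% of all genes tested. The gene was Cul2, the scaffold of the VHL ubiquitin ligase, at 1.85-fold its control level (0.89 ± 0.14, log2, SE, n = 5 per group; limma adjusted p = 0.00162). VHL's own gene, Vhl, changed by −0.21 (limma adjusted p = 0.219) and the third prolyl hydroxylase gene, Egln2, by −0.23 (limma adjusted p = 0.175). Hif1an, the asparaginyl hydroxylase that blocks coactivator binding, changed by −0.25 over 10 libraries (limma adjusted p = 0.556), made up of 0.35 in the first set and −1.14 in the second. Hif3a was below the expression limit. Groups did not overlap for 2 of the 14 regulators in the lower direction and 1 in the higher, beside 14.3% and 13% of all genes. In the first library set, 6 were called lower and 7 higher, beside 27% and 37.7% of all genes. In the second, 5 were lower and 2 higher, beside 46.5% and 25.7%.

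Of 31 other textbook targets outside glycolysis, 8 were called lower and none higher by limma, with a median change of −0.16. The shares over all genes tested were 14.1% lower and 13.6% higher. In the first library set, 7 targets were called lower and 9 higher (median 0.06), beside 27% and 37.7% of all genes. In the second, 21 were lower and 2 higher (median −0.86), beside 46.5% and 25.7%. Edn1, which encodes the vasoconstrictor endothelin-1 and passed the expression limit only through its controls, was 9.57-fold lower (−3.26 ± 0.57, SE, n = 5 per group; limma adjusted p = 0.00284). Stc2, a secreted glycoprotein of the stress response, was 6.18-fold lower (−2.63 ± 0.61; limma adjusted p = 0.0111). The other 6 were Lox, Loxl2, Plod2, Kdm4b, Fam162a and Ak4, named after their values were seen. Each was lower by more in the second library set than in the first. Ak4 changed by −0.25 in the first and −4.09 in the second. Fam162a was not called in the first (−0.24, limma adjusted p = 0.18) and changed by −2.05 in the second. Bnip3l, the close relative of Bnip3, changed by 0.04 (limma adjusted p = 0.915), with 0.43 in the first set and −0.55 in the second.

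Glycolysis genes known as HIF targets had a median change of −0.42 over 15 tested, with 5 called lower and none higher by limma. Beside these stand 14.1% lower and 13.6% higher over all genes tested. Pfkl, a phosphofructokinase subunit, was 3.05-fold lower (−1.61 ± 0.41, SE, n = 5 per group; limma adjusted p = 0.0167). Ldha, the lactate dehydrogenase A subunit, was 2.22-fold lower (−1.15 ± 0.28; limma adjusted p = 0.0143), although 1 or more of its libraries overlapped. The glucose transporter gene Slc2a1 changed by −0.01 over 10 libraries (limma adjusted p = 0.968), from 0.52 in the first set and −0.82 in the second. The list median was 0.08 in the first set and −1.16 in the second.

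Around the individual targets, the VEGF co-receptor genes Nrp1 and Nrp2 were lower by 2.24 and 1.81 on the log2 scale (limma adjusted p = 0.00177 and 0.00502). These were the 2 called genes of 6 tested VEGF ligands and receptors. In the first library set, 2 of the 6 were called lower and 3 higher, beside 27% and 37.7% of all genes. In the second, 5 were lower and 0 higher, beside 46.5% and 25.7%. Ramp1 and Ramp3, whose products pair with the calcitonin receptor-like receptor (RAMP3 to form an adrenomedullin receptor, RAMP1 to form that of the related peptide CGRP), were the only tested genes of that list, and both were called lower, by 3.09-fold and 2.83-fold (limma adjusted p = 0.000432 and 0.0114). In the second library set Ramp3 was not called (−0.35, limma adjusted p = 0.0877), while in the first it changed by −2.27. Of 5 tested carbonic anhydrases other than Car9, the secreted enzyme gene Car6 was 7.66-fold higher (limma adjusted p = 0.0039), Car13 was 2.42-fold higher (limma adjusted p = 0.00892) and the mitochondrial Car5b was 2.68-fold lower (limma adjusted p = 0.00175). No gene of 3 tested relatives of Ndrg1 was called by limma, with changes from −0.55 to 0.68. For all these lists, the shares over all genes tested were 14.1% lower and 13.6% higher.

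**Figure D3:**
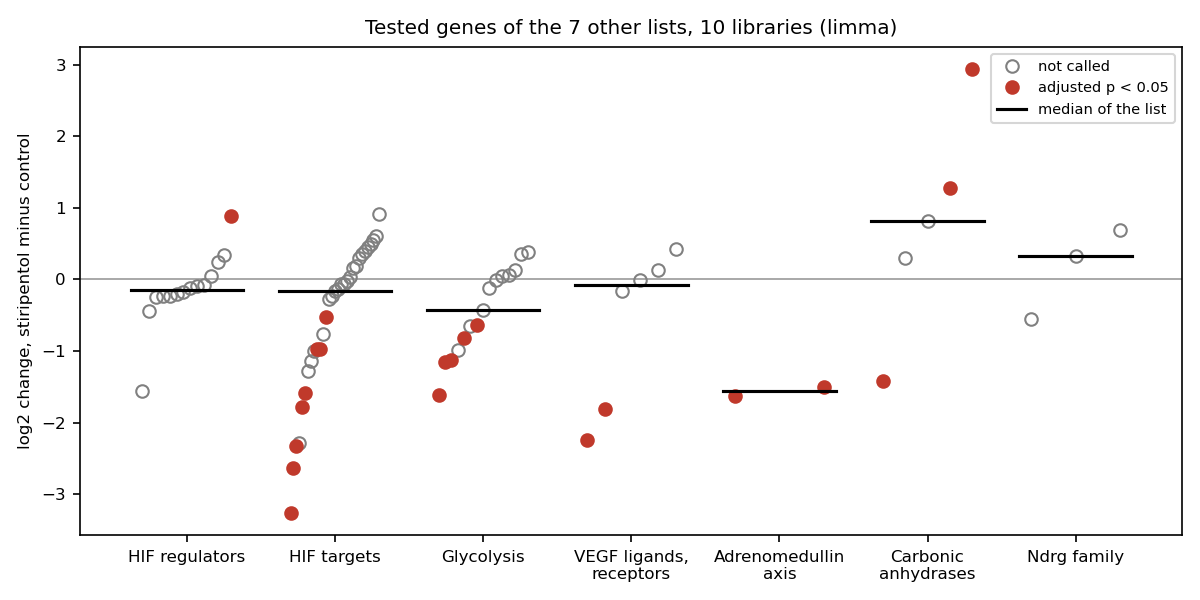
Log2 change with stiripentol (vertical axis, stiripentol minus control, 10 libraries) of each tested gene in 7 pathway lists without the members. Each point is a gene, red where limma called it, and the black lines are list medians. The called genes of the targets, glycolysis, VEGF and adrenomedullin lists all lie below 0. Over all genes tested, 14.1% were called lower and 13.6% higher. Within the first library set, the targets, glycolysis and VEGF lists also held genes called higher.

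**Figure D4:**
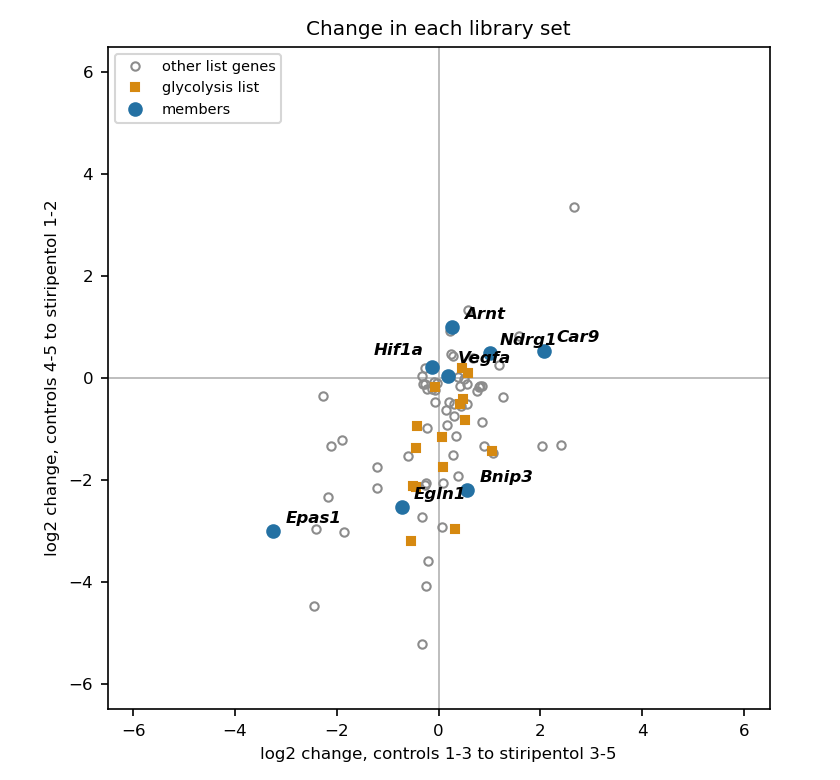
Log2 change in the second library set (controls 4 and 5 to stiripentol 1 and 2, vertical axis) against that in the first (controls 1 to 3 to stiripentol 3 to 5, horizontal axis) for 8 tested members and 76 list genes. Epas1 and Egln1 lie below 0 on both axes, Ndrg1, Car9, Arnt and Vegfa above 0 on both, and Bnip3 at 0.56 and −2.21. Of 15 glycolysis genes, 12 were called lower and 0 higher in the second set by limma, and 4 lower and 6 higher in the first. The shares over all genes tested were 46.5% and 25.7% in the second set and 27% and 37.7% in the first.

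The gene whose log2 CPM followed each called member most closely over the 10 libraries was Dab2 for Epas1 (Pearson r = 0.994), the glycolysis gene Pgam1 for Egln1 (0.995), AU040320 for Car9 (0.983) and Snrpn for Ndrg1 (0.993). Each is the highest value among all genes tested, over libraries that fall into 4 tight clusters, and is given as a description.

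By position, in GENCODE M21 on GRCm38, Epas1 lies on chromosome 17 at 86753700 to 86833410 (plus strand) and Egln1 on chromosome 8 at 124908587 to 124949324 (minus). Car9 lies on chromosome 4 at 43506966 to 43513729 (plus), Bnip3 on chromosome 7 at 138890836 to 138909519 (minus) and Ndrg1 on chromosome 15 at 66929318 to 66969640 (minus). Antisense genes also overlap Bnip3, Hif1a and Ndrg1, with at most 68 reads (Gm45507), 26 reads (Gm15283) and 4 reads (Gm17035) in a library.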

How the data were processed

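RNA of mSCLC-2405 cells was measured in 5 control libraries and 5 libraries after 250 μM stiripentol. The table that the authors deposited holds a log2 CPM for every gene in every library, normalized with GENAVi according to their methods, with a small prior added before the logarithm so that a gene with no read is listed at 1 of 2 values (−4.82 in controls 1 to 3, −4.74 in the other 7 libraries). Their 10 columns of group means, test results, fold changes and differences were not used. The labels name mm10 as the build, while the aligner and the counting of strand are not given in the sources used here. The methods describe a 3′ mRNA kit and the labels a total RNA kit.

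Read numbers were worked back from the log2 CPM, and 100% of values came out whole within 0.05 reads. They served for depth and for the low genes, and intervals or floors from them cover counting error only. The deposited values were tested with limma 3.58.1 in R 4.3.3 (mean-variance trend) over genes with a mean log2 CPM above 0, with Benjamini-Hochberg adjustment over all 12306 genes. A fold change on this scale understates that of low genes. Single members were also compared by two-sided exact permutation tests, whose p-values were not adjusted. The scripts were tested on simulated data. Sequences were read from RefSeq windows (GRCm38.p6) and positions from GENCODE M21. Python 3.11.15 was used for the rest. A total of 14 symbols made of digits only were kept as listed.

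The members, lists and tests were chosen with earlier results of these data known. Genes named were all members, up to 2 called genes with the largest rise and 2 with the largest fall in each list, 6 fixed genes (Hif1an, Vhl, Egln2, Hif3a, Bnip3l and Slc2a1) and the nearest gene of each called member. The other 6 called targets, the marker genes and the overlapping genes were named outside this rule. The alternatives tried were the omission of single libraries, the replicate number as a block, the library set as a term, each set alone, other filters, pseudocounts of 0.1 and 1 CPM, 2 other scalings, limma voom on the recovered reads, and only libraries that share 1 value for no reads. The reduction to 1 mean per group and set, and the crossed matching of sets, were added after the values were seen. Some items of the model and the marker lists are not reported here.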

Additional observations from a re-analysis of the deposited data

Results flagged for a closer look

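In the 22 groups of 5 libraries examined (10 members and the read total, in each treatment), 3 held a library far from the other four, and chance alone gives about 1 in 20 such groups. Hif1a measured 7.18 log2 CPM in stiripentol 1, below the other treated libraries. Adm was at −2.98 log2 CPM in control 5, from 2 reads where the other controls had none. The chance rate above does not apply to it, since any read would stand apart there. The read total of control 5 was 22375625, far below the other controls.

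The change with stiripentol differed between the library sets in 5 of 8 tested members, by the interaction term in limma and with the matching of sets given above. The second-set change minus the first-set change was 0.35 for Hif1a, 0.74 for Arnt, −1.81 for Egln1, −1.52 for Car9 and −2.76 for Bnip3. The share over all genes tested was 63.3%.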

How the results depend on the processing

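Leaving out 1 library at a time kept 2 members called lower and left 2 to 3 called higher, and gave 14 to 18 list genes lower, 3 to 5 higher, and 3 to 6 members whose change differed between the library sets. Within the first set the counts were then 2 to 3 lower and 3 to 5 higher, and within the second 3 lower and 2 to 3 higher. The replicate numbers did not pair the libraries (mean correlation of deviations −0.152, from −0.241 to 0.0646), and with the replicate block 2 members were lower and 2 higher, with 16 and 3 list genes, while calls over all genes fell from 1740 lower and 1674 higher to 1062 and 1020.

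Members called higher numbered 4 in the first set alone, 1 with a limit of mean log2 CPM above 1 (which removes Car9), 1 with controls 4 and 5 as the only controls, and 0 with 1 mean per group and set. With those means 0 members were lower, and 0 list genes were lower and 0 higher. List genes called higher numbered 9 with a term for the library set, 30 in the first set alone, 7 in the second and 5 after quantile normalization, and those called lower numbered 47 in the second set alone. Members higher in the second set numbered 1 with no filter and 4 after quantile normalization. Those lower in the second set numbered 4 with no filter, beside 3 in the main run. Over all genes, the term for the library set gave 3336 lower and 2908 higher, 1 mean per group and set gave 0 and 0 (1116 at an unadjusted p below 0.05), quantile normalization 1793 and 2085, and limma voom on recovered reads 1864 and 1762. The cause of these shifts was not tested.

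The sign turned for 5 of the members that were not called. Hif1a was at −0.0706 to 0.0793 when a library was left out, −0.13 in the first set and −0.0018 with voom. Adm was at −0.17 to 0.42 when a library was left out, −0.0044 with a pseudocount of 1 CPM and −0.0126 with 0.1 CPM. Bnip3 was at 0.56 and Egln3 at 0.71 in the first set alone, and Vegfa was at −0.12 from controls 1 to 3 to stiripentol 1 and 2. In the second set Egln3 was at −2.99, from 19 and 5 reads in its controls and 0 and 0 with stiripentol. Epas1, Egln1, Car9 and Ndrg1 kept their direction in every alternative run, but with a pseudocount of 1 CPM Epas1 was at −2.10 and Car9 at 0.73. With the sets crossed, 7 of 8 tested members differed between them, without a share over all genes to set beside that count. The planned quasi-likelihood count test was not run, since the deposited values are log2 CPM, and limma voom on the recovered reads took its place. Across the 10 libraries, no difference in Egln3 or Adm was detectable at this depth.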
